A study of Mus musculus with 26 samples.

Results

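The comparison is between resident alveolar macrophages (AM) taken 3 days and 1 day after mice were given lipopolysaccharide (LPS), by a route that the series text writes as IT. All libraries whose labels name a resident AM at these times were used: 3 at day 3 and 4 at day 1, which is 7 of 26 libraries in the series. The series also holds resident AM with no treatment, called day 0 here, resident AM at day 7 and bone marrow-derived macrophages (BM) at days 1, 3 and 7. Every library was made from lung cells as poly(A)-selected stranded RNA, and both groups compared carry the label LPS with no dose. The sample names of day 0 hold the word Young, and strain, genotype, age in any unit, sex, how the cells were isolated and any pooling of animals are not given in the sources used here. No source ties a replicate to its own animal. A p-value here therefore weighs a difference against the scatter of libraries within groups, estimated over all 26 libraries, and that scatter may be technical.

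Alveolar macrophages live in the air spaces, where they clear surfactant, particles and dying cells. LPS, from the outer wall of Gram-negative bacteria, binds Toll-like receptor 4 on their surface. The signal releases NF-kB, a family of transcription factors, which turns on genes for interleukin-1, tumour necrosis factor and the chemokines that call in neutrophils. The same signal turns on its own brakes, such as SOCS3 and A20, and over days the cells return to clearing debris, lipid and dead cells.

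Values are CPM, the usual count of a gene's reads relative to the reads of its library, after TMM scaling of the totals. Totals were 9176202 to 15073686 counts at day 1 and 11244884 to 14501585 at day 3. Replicates correlated less at day 1 (median r of 0.906 to 0.935 for log2 CPM, lowest in replicate 3) than at day 3 (0.967 in each). Replicate 3 of day 1 had 11308 genes detected, against 11912 to 14727 in the other day 1 libraries, and stood apart on the first principal component. The library names split both groups into a range of numbers up to 25 (day 1 replicates 3 and 4, day 3 replicate 3) and a range above 25 (the rest), and no source says what the numbers mark. Replicate 2 of day 3 stood apart in monocyte genes, with values given beside the results they touch. Among the BM libraries used for comparison, replicate 1 of day 3 stood apart, with 28294 CPM of endothelium and fibroblast markers, against 105 to 406 CPM in the other BM day 3 libraries, and 5369 CPM of neutrophil markers, against 621 to 1464 CPM.

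Between day 1 and day 3, 143 of 17143 tested genes changed at an adjusted p under 0.05 (0.834%) by edgeR's quasi-likelihood test. Of these, 107 were higher at day 3 (0.624% of tested genes) and 36 were lower (0.210%). The 5 smallest p-values were those of Itm2b, Pld4, Gm2a, Susd3 and Cxcr4, all higher, and the smallest among lower genes was that of Dab2. At an unadjusted p under 0.05 there were 2115 genes (12.3%). With other fits, named where they bear on a list, DESeq2's Wald test called 844 genes (4.92%) and a fit to the AM libraries alone 1040 of the 15014 it tested (6.93%). All day 3 libraries lay above all day 1 libraries for 104 of the 107 higher genes (8.20% of all tested genes) and below them for 35 of the 36 lower genes (4.84%). The median log2 fold change was 1.86 over the called higher genes and −1.08 over the called lower genes, beside 0.04 over all tested genes. The plot of fold change against abundance places these genes among all those with counts in both groups.

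**Figure D1:**
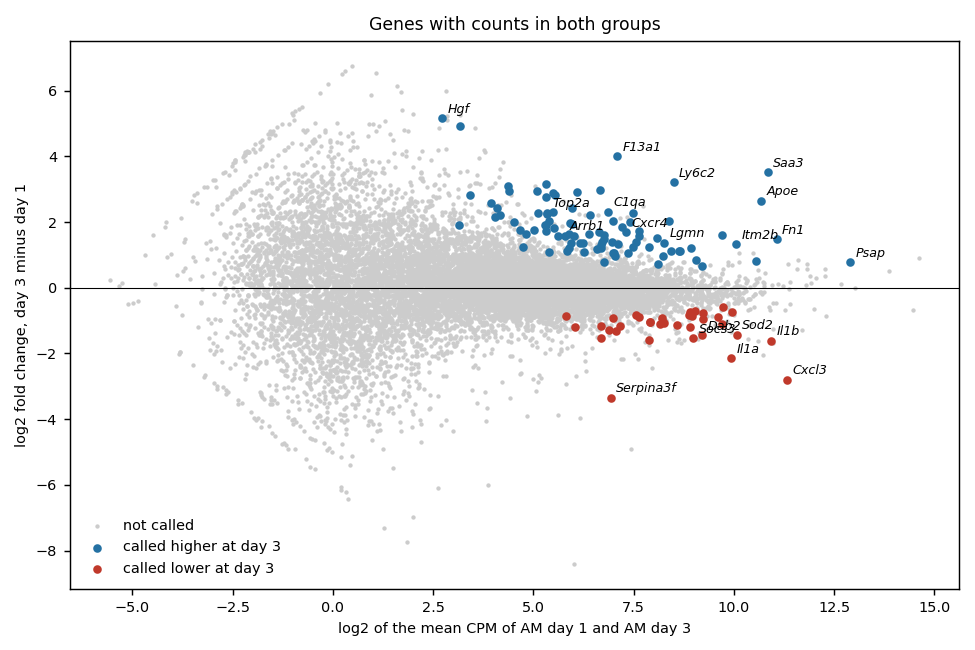
Each point is a gene with counts in both groups; the horizontal axis is log2 of the mean CPM of AM day 1 and AM day 3, and the vertical axis is the log2 fold change of day 3 minus day 1. Blue points are the called higher genes and red points the called lower genes; of the 107 higher genes 15 had 0 counts at day 1 and are not drawn.

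The promoters of 8 of these genes are shown with matches to 2 sequence elements known at inflammatory genes, the kappaB motif (bound by NF-kB) and the TATA box. Each line is the 150 bases before the annotated start (RefSeq, GRCm38.p6, first listed start of the gene), written 5′ to 3′ on the gene's strand. In Cxcl3, Nfkb2, Tnfaip3 and Sod2, all lower at day 3, capitals mark matches to the kappaB motif on either strand, where overlapping matches run together.
Cxcl3 (chr5:90785951-90786100, plus strand): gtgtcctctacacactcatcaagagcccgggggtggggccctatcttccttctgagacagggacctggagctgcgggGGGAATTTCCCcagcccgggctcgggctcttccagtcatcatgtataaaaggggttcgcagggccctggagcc
Nfkb2 (chr19:46304587-46304736, plus strand): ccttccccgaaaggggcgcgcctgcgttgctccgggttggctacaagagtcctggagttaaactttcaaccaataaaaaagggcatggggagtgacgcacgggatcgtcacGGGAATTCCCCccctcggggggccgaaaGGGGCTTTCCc
Tnfaip3 (chr10:19015411-19015560, minus strand): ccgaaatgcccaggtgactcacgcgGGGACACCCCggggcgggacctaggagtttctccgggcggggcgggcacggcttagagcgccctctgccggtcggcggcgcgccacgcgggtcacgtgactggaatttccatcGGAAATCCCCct
Sod2 (chr17:13007689-13007838, plus strand): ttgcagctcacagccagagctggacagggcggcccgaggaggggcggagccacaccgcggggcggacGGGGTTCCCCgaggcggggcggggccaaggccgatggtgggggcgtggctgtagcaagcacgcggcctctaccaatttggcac
In the next set, capitals mark TATAAA on the gene's strand. Il1a and Il1b fell, whereas Cxcr4 and Itm2b rose.
Il1a (chr2:129309973-129310122, minus strand): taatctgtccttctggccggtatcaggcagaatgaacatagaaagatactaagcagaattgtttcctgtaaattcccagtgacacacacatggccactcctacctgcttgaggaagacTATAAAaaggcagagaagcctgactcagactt
Il1b (chr2:129371140-129371289, minus strand): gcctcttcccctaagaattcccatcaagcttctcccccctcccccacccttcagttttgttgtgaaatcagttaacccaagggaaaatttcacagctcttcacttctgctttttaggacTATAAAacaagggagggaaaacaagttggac
Cxcr4 (chr1:128592300-128592449, minus strand): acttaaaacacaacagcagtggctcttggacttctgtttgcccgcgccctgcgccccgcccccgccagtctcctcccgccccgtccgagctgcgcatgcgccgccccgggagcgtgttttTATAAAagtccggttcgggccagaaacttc
Itm2b (chr14:73385290-73385439, minus strand): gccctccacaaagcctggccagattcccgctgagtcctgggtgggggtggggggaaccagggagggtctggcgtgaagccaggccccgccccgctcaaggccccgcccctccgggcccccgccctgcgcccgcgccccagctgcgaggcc
TATAAA began 32 bases before the start in Il1a, 31 in Il1b and 30 in Cxcr4. The Itm2b window has no TATAAA and 77.3% G and C, against 45.3% in Il1b. Over the 250 bases before the start, searched on both strands, the kappaB motif was found in 5 of the 32 called lower genes with a promoter in the table (Cxcl3, Nfkb2, Sdc4, Sod2 and Tnfaip3), in 7 of 82 called higher genes (Arhgap45, Ddr1, Grn, Lgmn, Lpin2, Neurl3 and Psap) and in 594 of 11028 tested genes (5.39%). TATAAA on the gene's strand was found in 6 of 32 lower genes, 5 of 82 higher genes and 5.11% of tested genes. The letters GAGGAA, a core of sites for the macrophage factor PU.1, were found on either strand in 7 of 32 lower genes, 33 of 82 higher genes and 26.4% of tested genes. A gene counted once if any of its listed starts had the match, and a match describes the letters and is not evidence of binding.

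The genes of interleukin-1 fell from day 1 to day 3. Il1b, which encodes the precursor of the secreted cytokine that drives fever and neutrophil entry (ENSMUSG00000027398, chromosome 2, 129364570 to 129371139 of GRCm38), stood at 3672, 3986, 1739 and 2365 CPM in day 1 replicates 1 to 4 and at 1083, 869 and 926 CPM in day 3 replicates 1 to 3. No library overlapped, although day 1 itself ranged widely, and the fall was 3.06-fold (log2 −1.62 ± 0.26, adjusted p = 0.0015). At day 0 Il1b was at 801 to 1138 CPM and at day 7 at 1216 to 1432 CPM. Il1a, its relative that is active without processing and released by injured cells, went from 1638, 1771, 1327 and 1667 CPM to 264, 438 and 387 CPM (−2.14 ± 0.39, adjusted p = 0.0051). Its day 3 libraries lay below the 671 to 907 CPM of day 0, while those of Il1b lay within its day 0 range.

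Cxcl3, a chemokine that draws neutrophils, was the 1 chemokine with a call. It was at 5383, 5873, 2302 and 4451 CPM at day 1 and at 961, 454 and 528 CPM at day 3, a 6.95-fold fall (−2.80 ± 0.56, adjusted p = 0.014). Even the lowest day 1 library was above all day 3 libraries, which in turn were above the 56.8 to 100.5 CPM of day 0. Tnf, the gene of tumour necrosis factor, was at 440.0, 396, 561 and 567 CPM at day 1 and 73.9, 249 and 169 CPM at day 3. Its groups did not overlap either, but the difference missed the threshold (−1.58 ± 0.39, adjusted p = 0.057), and both lay below the 898 to 1194 CPM of day 0. Among 20 alternative fits Tnf passed as a fall in 8. None of these was an edgeR fit without 1 day 1 library (adjusted p of 0.088 to 0.11).

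Of 19 tested inflammatory cytokines, Il1a and Il1b were called lower and none higher (background 0.210% lower), with a median log2 fold change of −0.76. All day 3 libraries lay below all day 1 libraries for 7 of them and above for 1, which held for 4.84% and 8.20% of all tested genes. Of 23 tested chemokines 1 was called lower and none higher, 10 lay wholly below day 1 and the median was −1.26. Summed over the list, cytokines had 7553, 8045, 5015 and 6172 CPM in the day 1 libraries and 2513, 2389 and 2484 CPM at day 3, and chemokines 16476, 18324, 10580.0 and 15773 CPM and 6735, 5262 and 7458 CPM. The day 3 sums were alike among replicates for cytokines and below every day 1 sum for both lists. The call of Il1a ended without day 3 replicate 1 (adjusted p = 0.058), and that of Cxcl3 without day 3 replicate 2 (0.17) or 3 (0.11).

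Some brakes of inflammatory signalling fell as well. Socs3, which blocks signalling by receptors of the interleukin-6 type, went from 897, 876, 689.9 and 549 CPM to 198, 281 and 300.2 CPM, a 2.90-fold fall (−1.54 ± 0.26, adjusted p = 0.0023). Tnfaip3, which encodes A20, an enzyme that shuts off NF-kB, went from a range of 852 to 1166 CPM to one of 409 to 657 CPM (−0.90 ± 0.22, adjusted p = 0.046). Dusp16, a phosphatase of stress kinases, went from a range of 70.2 to 74.3 CPM to one of 35.2 to 47.8 CPM (−0.86 ± 0.18, adjusted p = 0.015). For all 3 genes the groups did not overlap, as the rule for naming them required, and Dusp16 varied least at day 1. Of 26 tested feedback genes these 3 were called lower, none was called higher, and 11 lay wholly below day 1 and 0 above (median −0.56). Over all tested genes 0.210% were called lower and 4.84% lay wholly below day 1.

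Nfkb2, a member of the NF-kB family itself, was at 441, 291, 263 and 296 CPM at day 1 and 159.6, 172 and 136 CPM at day 3 (−1.05 ± 0.22, adjusted p = 0.014). In the list of Toll-like receptor and NF-kB genes 2 of 25 were called lower and 1 higher (background 0.210% and 0.624%). The median was −0.07, with 12 members above 0 and 13 below. Sod2, the mitochondrial superoxide dismutase, fell from 1715, 1998, 1229 and 1310.2 CPM to 605, 568 and 570.3 CPM (−1.43 ± 0.27, adjusted p = 0.0053). Its day 3 libraries were close to each other and still above the 137 to 207 CPM of day 0. Serpina3f, a protease inhibitor, went from 229.8, 287, 207 and 161 CPM to 13.8, 21.1 and 30.2 CPM (−3.35 ± 0.80, adjusted p = 0.04). That was the largest fall among called genes with at least 5 CPM, from a gene at most at 0.932 CPM in day 0, and its reads may be split with near-identical Serpina3 genes. Of the 6 genes from Socs3 to Serpina3f, Socs3 kept its call without each single library. Of the other 5, the calls of 4 ended without day 1 replicate 1 (adjusted p up to 0.11), 2 without day 1 replicate 2 (up to 0.10) or 3 (up to 0.074), 1 without day 1 replicate 4 (0.11), and 4 each without day 3 replicate 1 (up to 0.31), 2 (up to 0.25) or 3 (up to 0.14). With the range of library numbers as a term 120 genes were called (0.700%), 114 of them among the 143, and the calls of Tnfaip3 (adjusted p = 0.059) and Serpina3f (0.053) ended.

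Most interferon genes had log2 fold changes below 0, without a call in the fit to all libraries. Of 30 tested interferon-stimulated genes edgeR called none (10 with an unadjusted p under 0.05, 1 called lower by DESeq2, 4 lower in a fit to the AM libraries alone), 25 had a log2 fold change below 0, and the median was −0.70. All 15 tested interferon-inducible GTPases, proteins that attack vacuoles of microbes, were below 0 with a median of −0.98, and edgeR called none (8 with an unadjusted p under 0.05, 2 called lower by DESeq2, 7 lower in a fit to the AM libraries alone). Over all tested genes 12.3% had an unadjusted p under 0.05. DESeq2 called 1.86% lower and the fit to the AM libraries alone 2.90%. The summed level of the interferon-stimulated genes was 3493, 3581, 1824 and 2977 CPM in the day 1 libraries and 1460.2, 2025 and 1994 CPM at day 3. Day 1 replicate 3 was within the day 3 range, so these groups overlapped, and both stood above the 424 to 463 CPM of day 0.

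**Figure D2:**
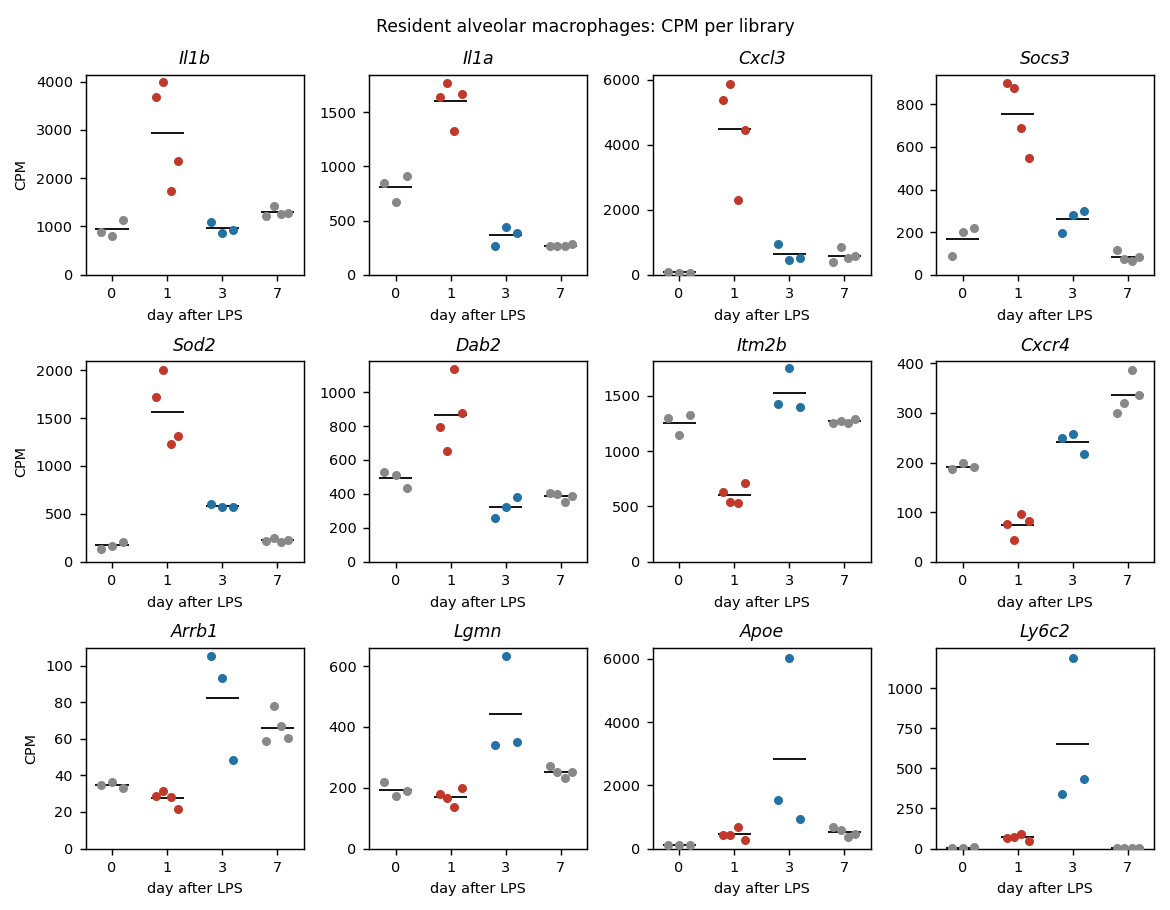
CPM of 12 genes in each resident AM library, by day after LPS (0, 1, 3 and 7); points are libraries, bars are means, and each axis starts at 0. Red (day 1) and blue (day 3) points do not overlap in any panel, a condition for naming all but Il1b, Dab2, Itm2b and Cxcr4. Of the genes that rose, Itm2b, Cxcr4, Lgmn, Apoe and Ly6c2 are highest in day 3 replicate 2 and Arrb1 in replicate 1.

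Single genes of the cell surface and of survival also fell. Dab2, an adaptor that gathers receptors into clathrin-coated pits (ENSMUSG00000022150, chromosome 15, 6299788 to 6440712), went from 796, 652, 1137 and 878 CPM at day 1 to 257, 323 and 379 CPM at day 3, a 2.71-fold fall (−1.44 ± 0.21, adjusted p = 0.00066). All day 3 libraries were below all day 1 libraries, and below the 434 to 531 CPM of day 0 as well. Plaur, the receptor of the protease urokinase, went from a range of 769.6 to 1393 CPM to one of 470.1 to 579 CPM (−1.10 ± 0.18, adjusted p = 0.0017). Cd274, which encodes the T cell inhibitor PD-L1, went from a range of 291 to 471 CPM to one of 167 to 198 CPM (−1.09 ± 0.24, adjusted p = 0.02). Sdc4, a heparan sulphate proteoglycan, went from a range of 227 to 464 CPM to one of 66.3 to 144 CPM (−1.59 ± 0.38, adjusted p = 0.04) and was at most at 15.3 CPM at day 0. Cflar, which holds back death receptor signalling, went from a range of 281 to 365 CPM to one of 130.1 to 191 CPM (−1.03 ± 0.25, adjusted p = 0.04), and the tryptophan tRNA ligase Wars from a range of 113 to 211 CPM to one of 67.5 to 70.9 CPM (−1.27 ± 0.27, adjusted p = 0.019). None of these genes overlapped between the groups, which was a condition for naming all of them but Dab2. Dab2 and Plaur kept their calls without each single library, whereas 2 to 4 of the other 4 calls ended in each such fit: without day 1 replicate 1 (4, adjusted p up to 0.12), 2 (3, up to 0.11), 3 (2, up to 0.10) or 4 (2, up to 0.074), and without day 3 replicate 1 (4, up to 0.27), 2 (4, up to 0.15) or 3 (4, up to 0.17). With the range term the calls of Sdc4 (adjusted p = 0.0502) and Cflar (0.057) ended too.

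Itm2b had the smallest p-value of the comparison and rose. It encodes BRI2, a membrane protein cut by furin and other proteases and known as a binder of the amyloid precursor protein (ENSMUSG00000022108, chromosome 14, 73362226 to 73385289). Its level was 631, 544, 534 and 713 CPM at day 1 and 1426, 1751 and 1403 CPM at day 3, a 2.52-fold rise (1.33 ± 0.14, adjusted p = 7.3e-06). Day 0 (1145 to 1325 CPM) and day 7 (1257 to 1288 CPM) lay between the groups and nearer to day 3. In the list of BRI2 relatives and proteases, Itm2b was the only 1 of 15 called (background 0.834%). The median was 0.07 (0.15 without 1 gene at 0 counts in both groups). App, the amyloid precursor protein gene, was at 831 to 1699 CPM at day 1 and 1218 to 1554 CPM at day 3 (0.02 ± 0.21, adjusted p = 1.0).

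Cxcr4, the receptor for CXCL12 that holds leukocytes in marrow and tissue (ENSMUSG00000045382, chromosome 1, 128588199 to 128592293), rose 3.24-fold. It was at 75.2, 43.6, 96.3 and 82.6 CPM at day 1 and 249, 257 and 217 CPM at day 3 (1.70 ± 0.23, adjusted p = 0.00024). Each day 3 library was above 2 times the highest day 1 library, and day 1 was also below day 0 (186 to 198 CPM) and day 7 (300.4 to 387 CPM). Of 18 tested genes of the CXCR4 axis and of chemokine receptors, Cxcr4 and C3ar1 were called higher and none lower (background 0.624% higher, median 0.07). Arrb1, beta-arrestin 1, which uncouples such receptors after they fire, went from 28.6, 31.7, 28 and 21.8 CPM to 105, 93.1 and 48.3 CPM (1.58 ± 0.25, adjusted p = 0.0014). Its day 3 replicate 3 was lowest but still above every day 1 library.

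Over the 18 alternatives that kept both ranges of library numbers, 17 of the 143 genes stayed called, 12 of them higher and 5 lower. They include Itm2b, Cxcr4, Arrb1 and Susd3 among the higher and Il1b, Socs3, Dab2, Plaur and Ptpn1 among the lower. Of the rest, Pld4, Gm2a and Ptpn1 are described because their calls held, a choice made with their values in view. Pld4, an endosomal nuclease that limits Toll-like receptor signalling by DNA, went from 41.8, 38.7, 49 and 72.4 CPM to 137, 282 and 196 CPM (2.02 ± 0.23, adjusted p = 1.6e-05). Gm2a, the activator protein for ganglioside breakdown in lysosomes, went from 115, 127, 176 and 151 CPM to 387, 507 and 313 CPM (1.50 ± 0.18, adjusted p = 4.1e-05). Both rose in every day 3 library, with replicate 2 the highest. Ptpn1, a phosphatase that dampens cytokine receptors, went from 779, 759, 809 and 811 CPM to 387, 435 and 416 CPM (−0.94 ± 0.17, adjusted p = 0.0038), with little spread in either group. The other 6 are Cd180, Cyp4f18, Hacd4, Pygl, Trpm2 and Vsir. Susd3 had 0 counts in all day 1 libraries and 3.89, 24.7 and 4.05 CPM at day 3, at least 193-fold higher against a floor of 3 counts over the group (adjusted p = 0.00019). Within 1 range of library numbers alone, with 1 or 2 libraries a group, Itm2b, Cxcr4, Arrb1 and Susd3 did not pass (adjusted p from 0.054 to 1.0).

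Lysosomal hydrolases, the enzymes that digest what macrophages take up, were higher at day 3 for part of the list. Lgmn, an asparaginyl protease that trims antigens and other proteases (ENSMUSG00000021190, chromosome 12, 102394084 to 102439813), was at 178, 166, 137 and 198 CPM at day 1 and 341, 634 and 351 CPM at day 3 (1.38 ± 0.23, adjusted p = 0.0023). Replicate 2 was the highest day 3 library, and the other two were still above day 1. Psap, the precursor of the saposins that help break down sphingolipids, went from 5267, 5170.3, 6412 and 5704 CPM to 9566, 10717 and 8862 CPM (0.78 ± 0.19, adjusted p = 0.04). Ctsh, a cathepsin that also matures surfactant protein, went from a range of 229 to 274 CPM to one of 453 to 731 CPM (1.11 ± 0.22, adjusted p = 0.0077), and Man2b1, the lysosomal alpha-mannosidase, from a range of 219 to 404 CPM to one of 626 to 787 CPM (1.20 ± 0.23, adjusted p = 0.0057). None of the 4 overlapped between the groups, as the rule for naming them required.

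Of 30 tested hydrolases these 4 were called higher and none lower (background 0.624% higher), 11 lay wholly above day 1 and 1 below, and the median was 0.31. Over all tested genes 8.20% lay wholly above day 1 and 4.84% wholly below. The summed level was 24091, 25674, 24034 and 25270.0 CPM in the day 1 libraries and 35898, 37063 and 33308 CPM at day 3, so every day 3 library exceeded every day 1 library. Of 25 tested membrane proteins and proton pump subunits of the lysosome edgeR called none (1 with an unadjusted p under 0.05, 1 called lower by DESeq2) and the median was −0.07. The test of a difference between these lists was not made. Without day 3 replicate 2 the hydrolase calls ended (adjusted p of 0.068 to 0.24), and that of Psap also ended without day 1 replicate 1 (0.13), 2 (0.13) or 4 (0.075) or day 3 replicate 1 (0.11) or 3 (0.067).

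Some genes of monocytes and of macrophages that descend from them rose, most in day 3 replicate 2. Apoe, a lipid carrier of lipoproteins (ENSMUSG00000002985, chromosome 7, 19696109 to 19699188), was at 423, 413, 683 and 283 CPM at day 1 and 1527, 6035 and 949 CPM at day 3 (2.66 ± 0.53, adjusted p = 0.014). Ly6c2, a surface protein of inflammatory monocytes, was at 68.7, 74, 91 and 46.5 CPM at day 1 and 339, 1189 and 430.4 CPM at day 3 (3.22 ± 0.53, adjusted p = 0.0026), and its reads may be split with near-identical Ly6 genes. In both genes replicates 1 and 3 of day 3 were also above every day 1 library.

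The complement chain C1qa went from 33.5, 38.2, 46.3 and 38.8 CPM to 103, 370.1 and 109.9 CPM (2.31 ± 0.45, adjusted p = 0.011) and C1qb from a range of 44.5 to 83 CPM to one of 152 to 568 CPM (2.28 ± 0.48, adjusted p = 0.02). F13a1, a transglutaminase of monocytes, went from 10.3, 4.25, 42.7 and 7.31 CPM to 85.8, 526 and 160.1 CPM (4.00 ± 0.75, adjusted p = 0.0086), with day 1 replicate 3 far above its group. C3ar1, the receptor of complement C3a, went from a range of 12.2 to 44.2 CPM to one of 91.3 to 341 CPM (2.99 ± 0.63, adjusted p = 0.021). The scavenger receptor Stab1 went from a range of 35.3 to 122 CPM to one of 125 to 525 CPM (1.99 ± 0.48, adjusted p = 0.048).

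Maf, a transcription factor of tissue macrophages outside the air space, went from a range of 6.04 to 25.8 CPM to one of 40.8 to 130.3 CPM (2.29 ± 0.43, adjusted p = 0.0057). Saa3, an acute phase protein made by activated macrophages, went from 307, 429, 335 and 119 CPM to 1584, 6074 and 2516 CPM (3.51 ± 0.80, adjusted p = 0.04). The cholesterol exporter Abca1 went from a range of 48.2 to 127 CPM to one of 198 to 465 CPM (1.72 ± 0.32, adjusted p = 0.0047). All 10 genes from Apoe to Abca1 were without overlap between the groups, as the rule for naming them required, and highest in day 3 replicate 2.

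In the list of monocyte-derived and tissue macrophages, 5 of 20 tested genes were called higher and none lower, 12 lay wholly above day 1, and the median was 1.90 (1.62 over 19 genes, with Folr2, at 0 counts on day 1, set to its bound and Cd163, at 0 and 2 counts, left out). The blood monocyte list had 2 of 17 called higher, Ly6c2 and F13a1, and a median of 0.24. Over all tested genes 0.624% were called higher, 0.210% were called lower and 8.20% lay wholly above day 1. Ccr2, a chemokine receptor that monocytes need to leave the marrow, was picked out with its values in view and was not called (log2 0.24 ± 0.57, adjusted p = 1.0). The summed level of the monocyte-derived list was 2282, 2222, 2904 and 2248 CPM in the day 1 libraries and 4720.0, 10755 and 4273 CPM at day 3, beside 13605 to 32168 CPM in the BM libraries of day 3 and 1815 to 2096 CPM in AM of day 0. The blood monocyte list summed to 979.7, 998, 893 and 789 CPM and 1299, 2848 and 1478 CPM. Day 3 replicate 2 thus stood above the other day 3 libraries in both lists, while replicates 1 and 3 also exceeded all of day 1. For the blood monocyte list this rests on the called Ly6c2 and F13a1. Without these genes replicates 1 and 3 would lie within the day 1 range of that list.

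Over the 107 called higher genes, day 3 replicate 2 was the highest day 3 library for 84, replicate 1 for 9 and replicate 3 for 14. The same shares over all tested genes are not given here, so these counts only describe the called genes. The mean of BM day 3 was above the mean of AM day 3 for 90 of the 107 (84.1%) and for 41.3% of all tested genes, or for 88 and 41.6% without BM day 3 replicate 1. Xist, which female cells transcribe from the silenced X, was at 0 CPM in all day 1 libraries and at 2.41, 20.8 and 0.450 CPM in day 3 replicates 1 to 3, where Y-linked RNA was at 217, 227 and 194 CPM. In BM day 3 Xist was at 85.6, 269, 8.81 and 0 CPM, and of the day 0 AM libraries replicate 1 had 143.6 CPM beside 145.7 CPM of Y-linked RNA. The part of monocyte-derived RNA in these rises was not tested, and in bulk RNA more cells of a type and more RNA per cell cannot be told apart. Without day 3 replicate 2, 31 genes were called, 23 higher and 8 lower, and 9 of the 10 calls from Apoe to Abca1 ended (adjusted p of 0.12 to 0.51), all but that of Ly6c2. On the log2 scale the values then were 1.46 for Apoe, 2.46 for Ly6c2, 1.45 for C1qa, 1.42 for C1qb, 2.93 for F13a1, 2.12 for C3ar1, 1.09 for Stab1, 1.62 for Maf and 2.79 for Saa3. F13a1 was at 5.14 without day 1 replicate 3, and the call of Stab1 also ended with the range of library numbers as a term (adjusted p = 0.093). In the other single-library fits 6 of the 10 ended without day 1 replicate 1 (up to 0.15), 5 without day 1 replicate 2 (up to 0.16) or 4 (up to 0.12), 1 without day 1 replicate 3 (0.073) or day 3 replicate 1 (0.058), and 2 without day 3 replicate 3 (up to 0.078).

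**Figure D3:**
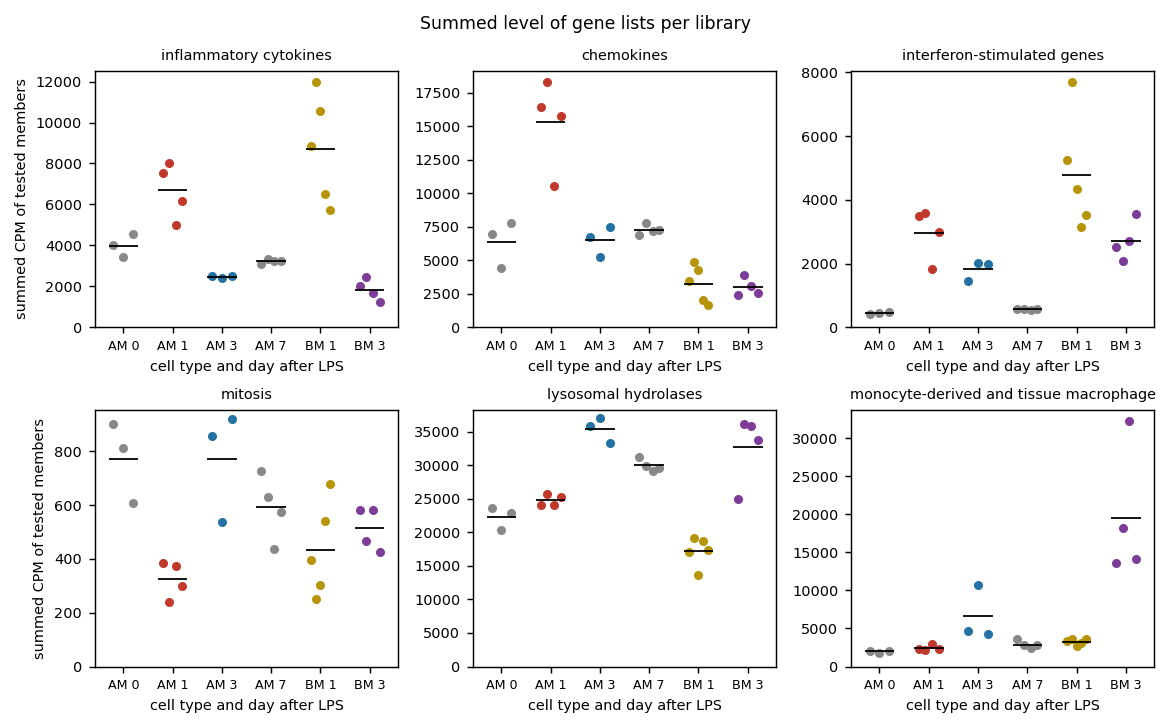
Summed CPM of the tested members of 6 gene lists in each library, for AM at days 0, 1, 3 and 7 and BM at days 1 and 3; points are libraries, bars are means, and axes start at 0. Cytokine sums of AM day 3 are 2389 to 2513 CPM, below all AM day 1 libraries, and 1 AM day 3 library reaches 10755 CPM in the monocyte-derived list, where the others are at 4720 and 4273 CPM.

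Some genes for the binding or sensing of dying cells, antibody and microbes were among the higher genes. Mfge8, a bridge between phosphatidylserine and integrins, went from 10.2, 15.9, 5.94 and 8.39 CPM to 109, 65.8 and 32.5 CPM (2.77 ± 0.64, adjusted p = 0.033), and Itgb5, a chain of such an integrin, from a range of 106 to 160.3 CPM to one of 285 to 425 CPM (1.26 ± 0.28, adjusted p = 0.024). With Stab1 these were the 3 of 24 tested efferocytosis genes called higher (background 0.624%), and none was called lower. The median was 0.02 (0.08 without 2 genes at 0 counts in both groups). The high-affinity IgG receptor Fcgr1 went from a range of 42.5 to 83.8 CPM to one of 85.2 to 251 CPM (1.50 ± 0.29, adjusted p = 0.0086). Clec12a, an inhibitory lectin that senses uric acid crystals, went from a range of 84.6 to 113 CPM to one of 188 to 370.4 CPM (1.56 ± 0.27, adjusted p = 0.0023). Tlr1, which pairs with Toll-like receptor 2 to sense lipopeptides, went from a range of 1.04 to 4.52 CPM to one of 9.87 to 34.3 CPM (2.83 ± 0.50, adjusted p = 0.003).

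The next genes called higher are 3 genes of lipid mediator metabolism and 3 genes of secreted proteins. Alox5ap, which presents arachidonic acid for leukotriene synthesis, went from 96.7, 108, 103 and 116 CPM to 259, 287 and 209.9 CPM (1.25 ± 0.24, adjusted p = 0.0065). Ptgs1, cyclooxygenase 1, was at 0, 0, 0 and 2.23 CPM at day 1 and 22, 16.1 and 13.9 CPM at day 3 (4.92 ± 1.10, adjusted p = 0.024), and Pla2g7, which breaks down platelet-activating factor, went from a range of 66.8 to 170.2 CPM to one of 338 to 844 CPM (2.03 ± 0.34, adjusted p = 0.0023). These were the 3 called of 20 tested genes of arginine, itaconate and prostaglandin metabolism (background 0.624% higher). Of the 20 genes 9 had positive and 10 negative log2 fold changes (median −0.17 as fitted, −0.35 without the 1 gene at 0 counts in both groups). Hgf, hepatocyte growth factor, was at 0.278, 0.881, 0 and 0.231 CPM at day 1 and 5.13, 24.8 and 8.63 CPM at day 3 (5.17 ± 0.86, adjusted p = 0.0022), near its day 0 level of 5.99 to 18.2 CPM. Fibronectin, Fn1, went from a range of 755 to 1826 CPM to one of 2923 to 3493 CPM (1.47 ± 0.35, adjusted p = 0.041), and the haemoglobin binder haptoglobin, Hp, from a range of 317 to 516 CPM to one of 1169 to 1399 CPM (1.62 ± 0.32, adjusted p = 0.011). In the list of repair factors and matrix, 2 of 25 were called higher and 1, Plaur, lower (background 0.624% and 0.210%, median −0.17).

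All 11 genes from Mfge8 to Hp were without overlap, as the rule for naming them required. Without day 3 replicate 2, 9 of these 11 calls ended (adjusted p up to 0.24), those of Hgf and Clec12a excepted. The log2 fold change of Tlr1 was then 2.08 and that of Hgf 4.27, and Hgf was at 6.13 without day 1 replicate 2. Ptgs1 has 0 counts at day 1 without day 1 replicate 4, so no fitted value is given. Leaving out day 1 replicate 1 or 2 ended 4 each (up to 0.12 and 0.16), day 1 replicate 3 or day 3 replicate 1 ended 3 each (up to 0.089 and 0.22), day 1 replicate 4 ended 2 (up to 0.098) and day 3 replicate 3 ended 1 (0.12).

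The summed level of mitosis genes was lower in every day 1 library than in any library of day 0 or day 3. Top2a, the topoisomerase that untangles replicated chromosomes, was at 6.40, 18.3, 11.5 and 18.9 CPM at day 1 and 60.7, 45 and 96.1 CPM at day 3 (2.29 ± 0.53, adjusted p = 0.036), without overlap, and at 60.2 to 106 CPM at day 0. The mitotic kinase Nek2 had 0 counts in all day 1 libraries and 12.8, 8.70 and 8.63 CPM at day 3, at least 166-fold higher against the floor of 3 counts (adjusted p = 0.027). Mki67, a marker of cycling cells, was at 161, 81.5, 121 and 67.6 CPM at day 1 and 248, 155 and 208 CPM at day 3, which overlapped (0.92 ± 0.29, adjusted p = 0.16).

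Only Top2a was called among 25 tested mitosis genes, but 19 lay wholly above day 1 (background 8.20%) and 24 had a positive log2 fold change, with a median of 2.32. The list summed to 385, 241, 375 and 300.4 CPM in the day 1 libraries, 857, 538 and 919.5 CPM at day 3 and 606 to 899.9 CPM at day 0, so day 3 exceeded day 1 in every library. Of 26 tested genes of DNA replication edgeR and DESeq2 called none (2 with an unadjusted p under 0.05), 4 lay wholly above day 1, the median was 0.07, and the fit to the AM libraries alone called 2 higher. The difference between the lists was not tested. DESeq2 called 8 mitosis genes higher and a fit to the AM libraries alone 11, beside 3.07% and 4.02% of all genes those fits tested. The calls of both Top2a and Nek2 ended without any 1 of the 4 day 1 libraries (adjusted p of 0.051 to 0.14) or day 3 replicate 1 (up to 0.073) or 2 (up to 0.082), and that of Top2a without day 3 replicate 3 (0.19).

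**Figure D4:**
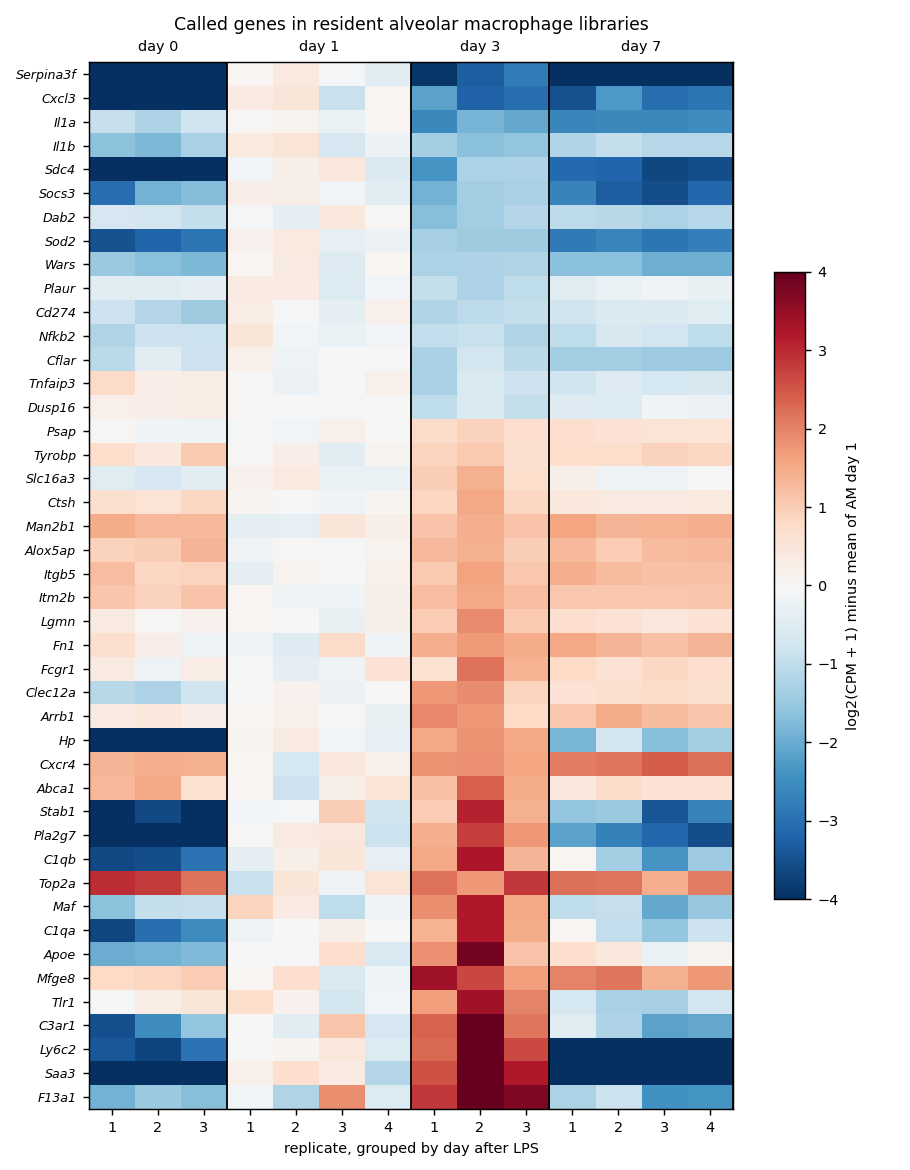
Each row is a called gene and each column a resident AM library, by day after LPS; colour is log2(CPM + 1) minus the mean of AM day 1. The upper 15 genes are lower (blue) in all 3 day 3 libraries and the rest are higher (red), with day 3 replicate 2 darkest for Apoe, C3ar1, Ly6c2, Saa3 and F13a1.

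Genes that identify resident alveolar macrophages had no call in the fit to all libraries. Siglecf, a lectin by which these cells are recognised, was at 84.7, 68.8, 79.9 and 148 CPM at day 1 and 153, 129 and 242 CPM at day 3 (0.87 ± 0.56, adjusted p = 0.62), both below the 447 to 534 CPM of day 0. Pparg, the nuclear receptor needed for their formation, was at 113, 112, 169 and 192 CPM and 156, 113 and 157 CPM (−0.04 ± 0.34, adjusted p = 1.0). The chitinase-like protein Chil3 was at 11163 to 14254 CPM and 16144 to 19713 CPM (0.52 ± 0.38, adjusted p = 0.74), without overlap. The edgeR test called none of the 24 tested identity genes (4 with an unadjusted p under 0.05), DESeq2 called 2 lower, and a fit to the AM libraries alone called 8 higher and 4 lower. In both directions together DESeq2 called 4.92% of all genes it tested and the fit to the AM libraries alone 6.93%. The list's median was −0.04, and its sum was 27932 to 37383 CPM at day 1 and 30012 to 38630.0 CPM at day 3, beside 30452 to 36552 CPM at day 0.

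Markers of other cells were low or did not pass the test. Marker lists were set for 8 groups of other cells, among them neutrophils, lymphocytes, dendritic cells, granulocytes, epithelium and stroma, and edgeR called no member of any of them (9 of 79 tested members had an unadjusted p under 0.05, beside 12.3% of all tested genes). The 12 tested neutrophil genes summed to 1050.5 to 2044 CPM at day 1 and 596 to 1179 CPM at day 3, beside 75.7 to 94.4 CPM at day 0. Of these sums Lcn2, which macrophages also make, held 1012 and 635 CPM on average. The part of neutrophil RNA in the falls of cytokine genes was not tested. Lung epithelium genes summed to 113 to 172 and 148 to 209 CPM, and dendritic cell genes to 139.5 to 384 and 44.9 to 56.8 CPM. The plot of list medians shows the lists of biology side by side.

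**Figure D5:**
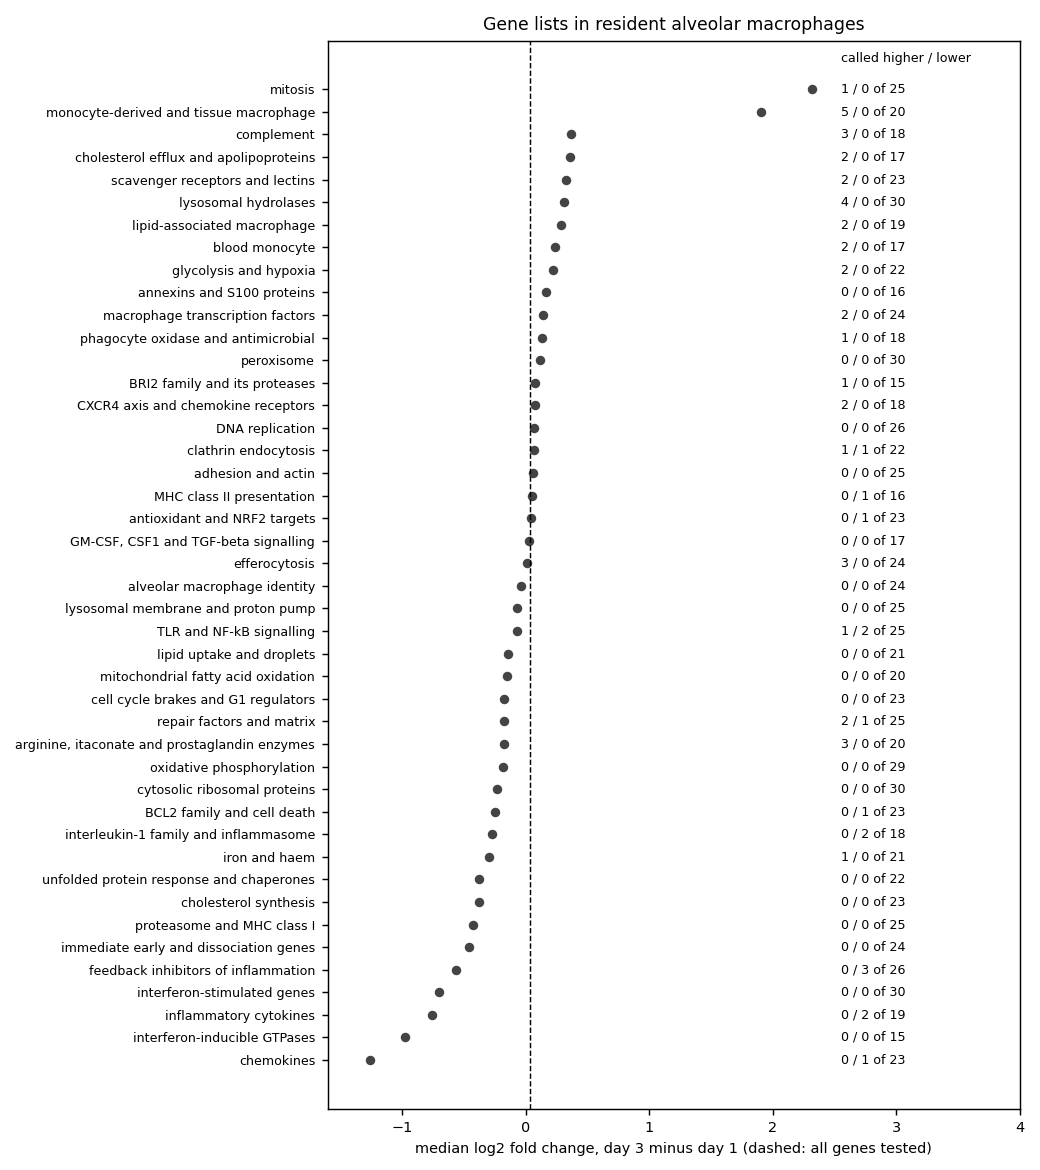
Median log2 fold change of day 3 minus day 1 (points) over the tested members of each gene list, with the numbers called higher and lower at the right; the dashed line is the median of all genes tested, 0.04. Mitosis (2.32) and monocyte-derived macrophage genes (1.90) lie farthest right and chemokines (−1.26) farthest left.

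The changes of AM were set beside those of bone marrow-derived macrophages over the same days, by a test of the difference. The change in AM minus the change in BM from day 1 to day 3 was called for 1979 genes (11.5%, with the AM change higher for 8.02% and lower for 3.52%), and for 64 of the 143 genes, 47 of the higher and 17 of the lower. This difference holds the same AM change on which the 143 genes were called, so their count follows in part from that choice. BM day 1 stands alone in the prefix of its library names and carried Xist at 472 to 910 CPM, against 0 in AM day 1, so cell type cannot be told apart from prefix and sex-linked RNA there. BM day 3 has another prefix and carried Xist at 0 to 269 CPM. In every BM change given here, day therefore cannot be told apart from prefix and sex-linked RNA either. Differences are given again without BM day 3 replicate 1 and BM day 1 replicate 3, where 2860 genes were called (16.5%), 67 of the 143 among them. Cxcr4 rose in AM while its BM change was −0.42 ± 0.20 (difference 2.12 ± 0.31, adjusted p = 7.7e-05; without these libraries 1.88 ± 0.30, 0.00013). Arrb1 differed by 2.31 ± 0.34 (adjusted p = 7.7e-05; without them 2.42 ± 0.33, 3.4e-05). Dab2 fell in AM while its BM change was 0.76 ± 0.18 (difference −2.20 ± 0.28, adjusted p = 2.6e-05; without them −2.19 ± 0.29, 2.7e-05). Itm2b had a BM change of 1.62 ± 0.12, and the difference did not pass (−0.28 ± 0.19, adjusted p = 0.4; without them −0.17 ± 0.19, 0.64). For Il1b the BM change was −2.64 ± 0.24, a larger fall than in AM (difference 1.02 ± 0.33, adjusted p = 0.043; without them 1.09 ± 0.35, 0.035). BM from day 1 to day 3 had 10.6% of tested genes called higher and 15.2% lower. Of the 107 higher AM genes 40 were called higher and 11 lower in BM, and of the 36 lower ones 20 were called lower and 3 higher. Without the 2 BM libraries these counts were 40, 11, 18 and 3.

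Levels at the other times place the day 1 and day 3 values, as means with no test. Of the 36 called lower genes 33 had a higher mean at day 1 than at day 0, and 16 had a lower mean at day 3 than at day 0. Of the 107 called higher genes 77 had a higher mean at day 3 than at day 0, and 83 a lower mean at day 7 than at day 3. The genes were called on the same day 1 and day 3 values, so these counts follow in part from that choice. Shares over all tested genes are not given here, and no course over time is drawn from the counts. AM day 0 has a library-name prefix of its own, and AM day 7 carried Xist at 279.7 to 327.6 CPM, so day cannot be told apart from prefix at day 0 or from sex-linked RNA at day 7.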

How the data were processed

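Poly(A)-selected, stranded RNA libraries of lung macrophages were sequenced, and the authors deposited raw counts per Ensembl gene for 26 libraries. The submitters' processing notes name HISAT2 2.1.0, featureCounts 2.0.0, Trimmomatic 0.39, FastQC 0.11.9 and the build GRCm38. Settings, annotation and the strand option are not given in the sources used here, so reads of overlapping antisense genes may not be told apart. The 37 mitochondrial genes have 0 counts throughout. Symbols and positions come from GENCODE M21 (55227 of 55487 IDs) and promoters from RefSeq.

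One model of all libraries, with 7 group means and 19 residual degrees of freedom, was fitted in edgeR 4.0.16 under R 4.3.3 after TMM scaling. The quasi-likelihood F test was run with its robust option. filterByExpr at a minimum count of 10 kept 17143 genes, which hold 99.9% of all reads counted. The Benjamini-Hochberg adjustment ran over all genes kept, and a gene was called below 0.05. Effects are log2 fold changes ± SE. For a gene at 0 counts in a group, a lower bound was computed with a floor of 3 counts over the group, which covers counting error only. The procedure was tested on simulated data.

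The comparison, its marker genes (Itm2b, Cxcr4, Il1b and Dab2) and the 52 gene lists were chosen with earlier results of these data known, so list counts are descriptions. Named genes are these markers, Siglecf, Pparg, Tnf and Mki67, the 10 largest rises and falls among called genes with at least 5 CPM and no overlap, up to 4 called genes a list under the same conditions with its most abundant member, and the 5 largest interaction differences each way. Some are not reported here. Alternatives were DESeq2 1.42.0 with its Wald test, its size factors in edgeR, library size alone, no filter, a stricter filter (5 CPM in 3 libraries), fits to AM libraries or the 2 groups alone, a block for the replicate numbers (from titles or from descriptions), a term for the range of library numbers, each range by itself, and leaving out each library.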

Additional observations from a re-analysis of the deposited data

Results flagged for a closer look

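In 2 of 51 genes checked, 1 day 1 library was far from the other 3, where chance alone gives about 1 in 20. For F13a1 day 1 replicate 3 was the highest, and its gap to the next library was 0.843 of the group's range. For Ptgs1 day 1 replicate 4 was the highest with a ratio of 1.00, since the other 3 had 0 counts.

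The change from day 1 to day 3 in AM differed from that in BM, by the test of the difference, for 14 of the 46 called genes counted here. Over all tested genes the share was 11.5%. The 46 genes were called on the AM change, which is part of the difference, so their count follows in part from that choice. On the log2 scale the AM change minus the BM change was positive for Il1b by 1.02, Tnfaip3 by 0.98, Dusp16 by 1.90, Cxcr4 by 2.12, Arrb1 by 2.31, Tlr1 by 2.39, Hgf by 5.10, Top2a by 2.45. It was negative for Cxcl3 by −2.41, Sod2 by −1.14, Serpina3f by −3.89, Dab2 by −2.20. Susd3 and Nek2 passed too, but have 0 counts in a group, so no fitted difference is given. Without BM day 1 replicate 3 and BM day 3 replicate 1, the library with 28294 CPM of endothelium and fibroblast markers, the difference of Tnfaip3 no longer passed (0.77 ± 0.28, adjusted p = 0.059), and those of the other genes named here passed with the same sign. The part of the library-name prefix and of sex-linked RNA in these differences was not tested.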

How the results depend on the processing

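Over all alternatives no called gene named above changed direction, and all 143 called genes kept their sign in every alternative that tested them. Of the 143 genes 139 had no overlap between the groups, so leaving out libraries could hardly have reversed their sign. The number of called genes was 143 (107 higher, 36 lower) and moved most with the test used and with the set of libraries. It was 844 (526 and 318) with DESeq2's Wald test, which called all 143, and 1040 (604 and 436) in AM libraries alone, which called 140 of them. In the 2 groups alone 108 genes were lower, with 86 of the 143 kept. Within library numbers above 25 the count was 60 (10 higher), and within those up to 25 it was 37 (16 higher, 21 lower). Leaving out 1 library gave 31 to 138 genes, 23 to 101 higher and 8 to 37 lower. Without day 1 replicate 3 and day 3 replicate 2 together, chosen after seeing the data, it was 42 (29 and 13). The cause was not tested, beyond the fewer samples of the left-out and within-range fits.

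Across days, deviations from the group means correlated at −0.02 to 0.07 for same-numbered libraries and at −0.06 to 0.07 for the rest, over both numberings. With so few libraries a group, these values cannot decide whether the numbers pair libraries. As a block, the numbers of the titles gave 103 genes, 70 of them higher, and those of the descriptions 157. For the AM change minus the BM change the count of 1979 became 1253 with the stricter filter, 1086 and 909 with the title and description numbers as a replicate block, 1180 to 1899 without 1 AM library, and 2860 without BM day 1 replicate 3 and BM day 3 replicate 1. Depth, 9176202 counts in the shallowest library, limits calls for genes of a few CPM, and 15 called genes have 0 counts at day 1.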
